A study of Mus musculus with 19 samples.

Results

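The genes described here encode the proteasome, the protease complex that degrades ubiquitin-tagged proteins. They were chosen by symbol, as protein-coding genes named Psma, Psmb, Psmc, Psmd, Psme or Psmf with a number, and by a minimum of 10 counts in at least 2 of 19 libraries. Of 46 such symbols 42 met the minimum, out of 55401 genes counted. Of these, 41 are subunits, regulators or assembly chaperones, and Psmc3ip, which the symbol rule also takes, is a cofactor of meiotic recombination and not a subunit. RNA came from C2C12, an established line of wild-type mouse myoblasts. Cells had 100 nM thapsigargin for 2 h (n = 3), 6 h (n = 3) or 12 h (n = 2), or the vehicle DMSO for the same times (n = 3, 3 and 2). Thapsigargin blocks the calcium pump of the endoplasmic reticulum (ER). A recovery group (n = 3) had 6 h of thapsigargin and then 48 h without it. The vehicle groups ended at 12 h, so for the recovery cells the effect of drug removal and that of longer culture cannot be told apart. All groups are of 1 cell line, and nothing in the sample records says that replicates were separate cultures, so the p-values may measure technical spread only.

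The 20S core of the proteasome is a barrel of alpha rings (Psma genes) around beta rings (Psmb genes), and Psmb5, Psmb6 and Psmb7 encode its proteolytic subunits. Interferon replaces these with the immunoproteasome subunits Psmb8, Psmb9 and Psmb10. The 19S particle, which binds, unfolds and feeds in ubiquitinated proteins, has ATPases (Psmc genes) and non-ATPase subunits (Psmd genes). PA28 (Psme1, Psme2, Psme3), PA200 (Psme4) and PI31 (Psmf1) are further regulators that bind the core. Misfolded ER proteins are moved to the cytosol and degraded by the proteasome, and when proteasome activity is limiting the transcription factor NRF1 (Nfe2l1) raises proteasome genes through antioxidant response elements.

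Every one of the 42 members passed the filter for the tests. Library totals lay between 17.31 and 40.96 M (mega) counts in genes. Levels below are CPM, counts per mega (M) of library counts, with library sizes scaled by TMM factors, and differences are log2 with the standard error (SE) of edgeR's quasi-likelihood fit. A member was called at a Benjamini-Hochberg adjusted p under 0.05 over the 18039 genes tested. Some libraries stood apart. Mitochondrially encoded RNA took 15.8% of counts in DMSO 2 h replicate 3 and 14.89% in recovery replicate 1, against 1.41% to 3.07% elsewhere. Long genes stood low against short genes in DMSO 6 h replicate 3 and recovery replicate 1 and high in thapsigargin 6 h replicate 1, each compared with its own group. Fits without the 3 libraries whose length trend stood apart leave out these. Long minus short genes, a log2 measure described below, also set 2 kept libraries away from their groups. These were recovery replicate 2 (-0.15, against -1.80 and -0.95) and DMSO 2 h replicate 3 (1.31, against 0.74 and 0.83). The drug response itself was in place: Atf4, Ddit3, Chac1 and Hspa5 rose at 2, 6 and 12 h, 4 of 4 each time, and fell in recovery against thapsigargin at 6 h. All 6 myoblast markers were detected. Vim averaged 1370 to 12700 CPM over the groups, and Myod1 5.03 to 212 CPM.

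Levels per kilobase of exon ordered the members over a wide range. Averaged over the 19 libraries, the alpha subunit gene Psma7 stood highest at 300.0 CPM per kb, followed by Psmb3 (282 CPM per kb), Psmb6 (282 CPM per kb), Psmb4 (248 CPM per kb) and the ATPase gene Psmc5 (195 CPM per kb). The lowest were Psme2b (4.42 CPM per kb), Psmc3ip (9.93 CPM per kb), Psmf1 (10.6 CPM per kb) and Psmb10 (15.3 CPM per kb). The order differed between groups: in DMSO at 2 h Psma7 was still the highest, but Psmd2 ranked 2 (14 over all libraries), Psmb3 8, Psmb6 12 and Psmc5 18. Genes whose products are present in equal number in the assembled core were far apart in level per kilobase: Psma2 had 33.4 CPM per kb. Such levels depend on the length used, that of the longest coding transcript, 2911 bases for Psma2 and 1157 for Psma7. Which transcripts the cells make was not tested. Psmb5, which encodes the chymotrypsin-like site, ranked 33 of 42 with 40.0 CPM per kb. Its log2 ratio to Psmb6, the caspase-like subunit gene, on the per-kilobase scale lay between -3.37 and -2.84 in the group means. The exons of Psmb5 share 12.1% of their bases with the microRNA gene Mir686 on the same strand, and reads in shared bases may have been left uncounted. The 3 assembly chaperones of the 19S particle, Psmd5, Psmd9 and Psmd10, averaged 16.2 to 19.4 CPM per kb.

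**Figure D1:**
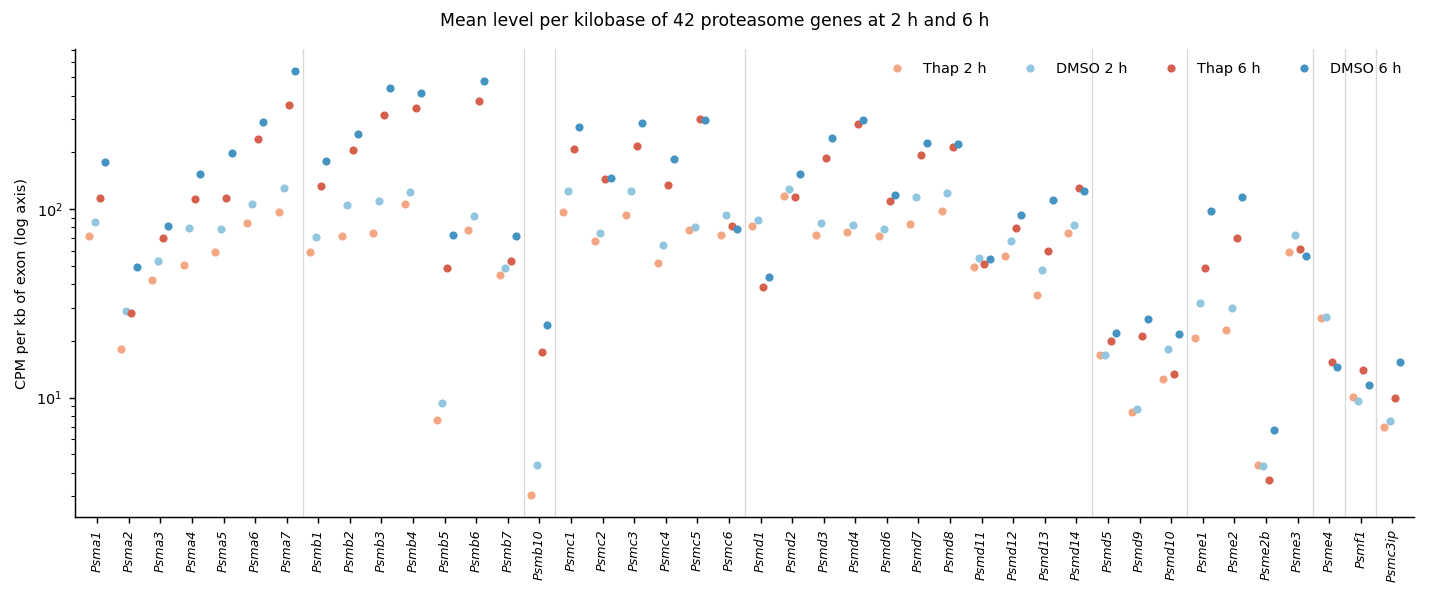
Mean level of each of 42 members, in CPM per kilobase of exon on a log axis, in thapsigargin and DMSO at 2 h and 6 h (n = 3 libraries each; points are group means). Vertical lines separate the classes, from alpha subunits on the left to Psmc3ip on the right; Psma7 stood highest and Psme2b lowest over all 19 libraries.

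Immunoproteasome and tissue-specific subunits were close to absent. Over all 19 libraries Psmb8 had 33 counts, Psmb9 had 60, the thymus subunit Psmb11 had 21 and the testis subunit Psma8 had 3. The most in 1 library was 10 counts (Psmb9), or 0.283 CPM. Psma8 had no count in 17 libraries, which allows up to 3 counts each, or 0.0657 to 0.242 CPM. Psmb10 was the one immunoproteasome gene above the minimum. Its log2 ratio to Psmb7, the subunit it replaces, was -3.90 ± 0.22 in thapsigargin and -3.50 ± 0.13 in DMSO at 2 h (SD, n = 3 each, counts per kb). At 6 h the ratio was -1.73 ± 1.01 in thapsigargin and -1.68 ± 1.47 in DMSO, at 12 h -2.2 ± 0.27 and -2.73 ± 0.09 (n = 2 each), and in recovery -0.91 ± 3.01. With 3 libraries a side an exact permutation test cannot give a p below 0.10, so the ratios are described only. In recovery the ratio ran from -2.98 to 2.54, and the highest came from replicate 1, the library with 14.89% mitochondrial RNA. That library also had the furthest trends over gene length (-1.80) and GC content (2.02, high-GC minus low-GC genes). This GC measure ran from -0.89 to -0.54 at 2 h and from -0.24 to 1.32 at 6 h. Psmb10 has 56.5% GC and Psmb7 48.7%. What part of the ratio goes with these trends was not tested.

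At 2 h of thapsigargin 0 of 42 members were called by edgeR, against 4.52% of all genes tested. The members' median log2 difference was -0.27, against -0.04 over all genes, and 39 of 42 differences were negative. An unadjusted p under 0.05 was found for 3 members (against 16.9% of all genes), and DESeq2 called 3, Psma2, Psma4 and Psmd10, all lower (against 9.36%). In 14 members every thapsigargin library lay below every DMSO library (33.3%, against 19.2% of all genes), and in 0 members above (against 19.3%). All 7 alpha subunit genes were negative, between -0.67 (Psma2) and -0.25 (Psma1), as were all 7 constitutive beta genes, all 6 ATPase genes and all 11 non-ATPase genes. Psma2 had the smallest adjusted p, 0.066, at -0.67 ± 0.20. Its levels were 49.7, 53.0 and 54.9 CPM in thapsigargin, against 92, 103 and 55.8 CPM in DMSO. The groups did not overlap, but DMSO replicate 3 lay next to the thapsigargin libraries. Without that replicate, the library of high mitochondrial share, 3 members were called lower (against 3.73% of all genes called): Psma2 (-0.89, adjusted p = 0.0031), Psmd10 (-0.71, 0.042) and Psma5 (-0.75, 0.044). Among the catalytic and regulator genes none was called: Psmb5 (-0.31 ± 0.69), Psmb10 (-0.53 ± 0.65), Psme1 (-0.62 ± 0.44), Psme2 (-0.37 ± 0.46), Psme3 (-0.29 ± 0.22), Psme4 (-0.02 ± 0.25) and Psmf1 (0.07 ± 0.19).

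**Figure D2:**
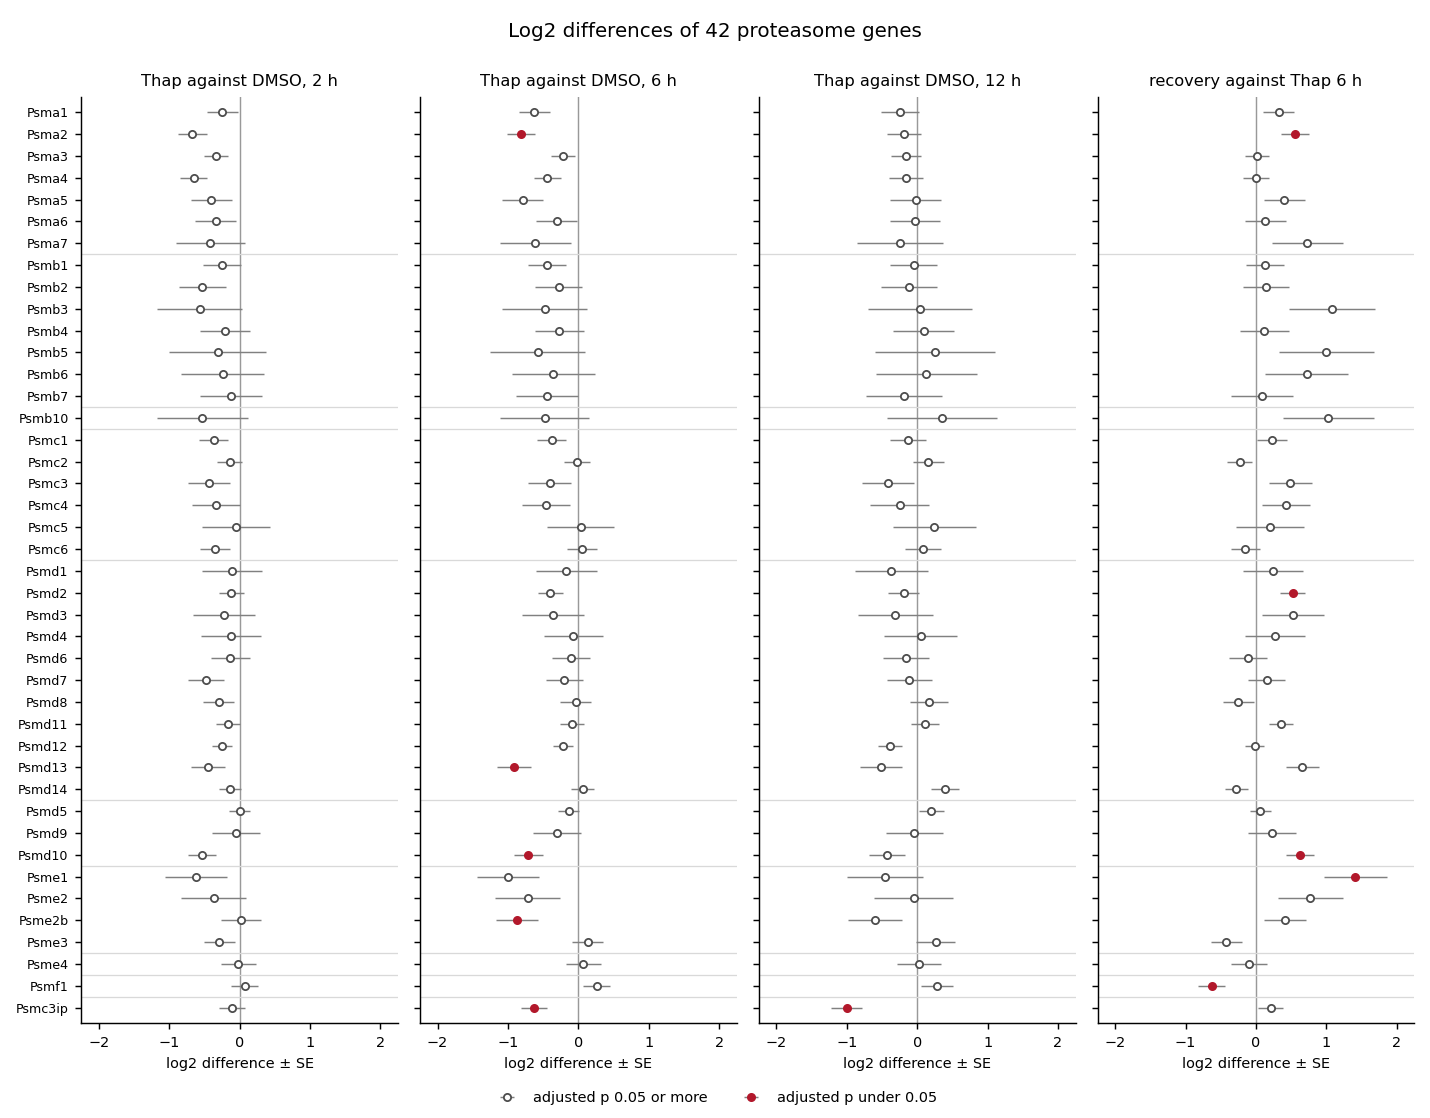
Log2 differences (dots) with SE (bars) of 42 members in 4 comparisons, by class from alpha subunits at the top to Psmc3ip at the bottom; filled dots have an adjusted p under 0.05 over all genes (edgeR). At 2 h none is filled, at 6 h 5 are filled and all lie left of 0, at 12 h Psmc3ip alone is filled, and in recovery against thapsigargin at 6 h 4 are filled to the right and Psmf1 to the left.

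At 6 h 5 members fell and 0 rose, 11.9% of members against 21.8% of all genes called in either direction. Among all genes 8.79% fell and 13% rose. The members' median was -0.36, against 0.01 over all genes, and 36 of 42 differences were negative. The median was -0.14 (all genes 0.08) without DMSO replicate 3 and -0.17 (all genes -0.05) without thapsigargin replicate 1. Thapsigargin libraries all lay below DMSO libraries in 11 members (26.2%, against 16.4% of all genes) and above in Psmf1 alone (2.38%, against 21.0%). The 5 that fell were spread over the classes: an alpha subunit (Psma2), a lid subunit of the 19S particle (Psmd13), an assembly chaperone (Psmd10), a copy of a PA28 gene (Psme2b) and Psmc3ip.

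Psma2, on chromosome 13 (14613240 to 14674236, GRCm38), encodes an alpha ring subunit. It had 71.5, 87.4 and 86.7 CPM in thapsigargin at 6 h, against 139, 148 and 144 CPM in DMSO. The groups lay far apart, and each was narrow. The log2 difference was -0.81 ± 0.20 (adjusted p = 0.0069, edgeR), and the call held without any 1 of the 6 libraries (adjusted p 0.017 to 0.031). It was lost with total-count scaling, as all 5 calls were, and with length and GC offsets plus a replicate block. Psmd13, on chromosome 7 (140881968 to 140898643), encodes Rpn9 of the lid and had 85.3, 138 and 133 CPM in thapsigargin, against 211, 191 and 265 CPM in DMSO (-0.91 ± 0.24, adjusted p = 0.013). Thapsigargin replicate 1 and DMSO replicate 3, libraries whose length trend stood apart, were its lowest and highest; without either, the call was lost (-0.72, adjusted p = 0.062, and -0.76, 0.061). Of its exonic bases 10.1% overlap Sirt3 on the other strand, and the strand setting of the counts is not known.

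Psmd10, on chromosome X (140948429 to 140956728), encodes gankyrin, a chaperone of 19S assembly. It had 21.5, 18.1 and 17.7 CPM in thapsigargin at 6 h, against 31.3, 34.9 and 27.4 CPM in DMSO (-0.71 ± 0.20, adjusted p = 0.019). The groups did not overlap. The call was lost without DMSO replicate 1 (0.052) or 2 (0.062) or thapsigargin replicate 2 (0.062) or 3 (0.074), while the difference stayed between -0.71 and -0.64. Psme2b, a copy of the PA28 beta gene Psme2, had 1.69, 3.99 and 3.54 CPM in thapsigargin, against 5.13, 4.33 and 7.39 CPM in DMSO (-0.87 ± 0.30, adjusted p = 0.047). Its sequence is close to that of Psme2, so its counts are uncertain, and the call was lost without DMSO replicate 1 (-0.93, 0.079) or 3 (-0.62, 0.21) or thapsigargin replicate 1 (-0.57, 0.17) or 3 (-0.98, 0.069). Psmc3ip, of which 21.2% of exonic bases overlap Mlx on the other strand, had 10.7, 13.6 and 14.5 CPM in thapsigargin, against 20.3, 18.9 and 20.7 CPM in DMSO (-0.63 ± 0.18, adjusted p = 0.018). Its call was lost without DMSO replicate 1 (-0.61, 0.057) or 3 (-0.60, 0.053) or thapsigargin replicate 1 (-0.50, 0.075). Fewer cells that express a gene and less RNA per cell cannot be told apart in such bulk libraries.

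**Figure D3:**
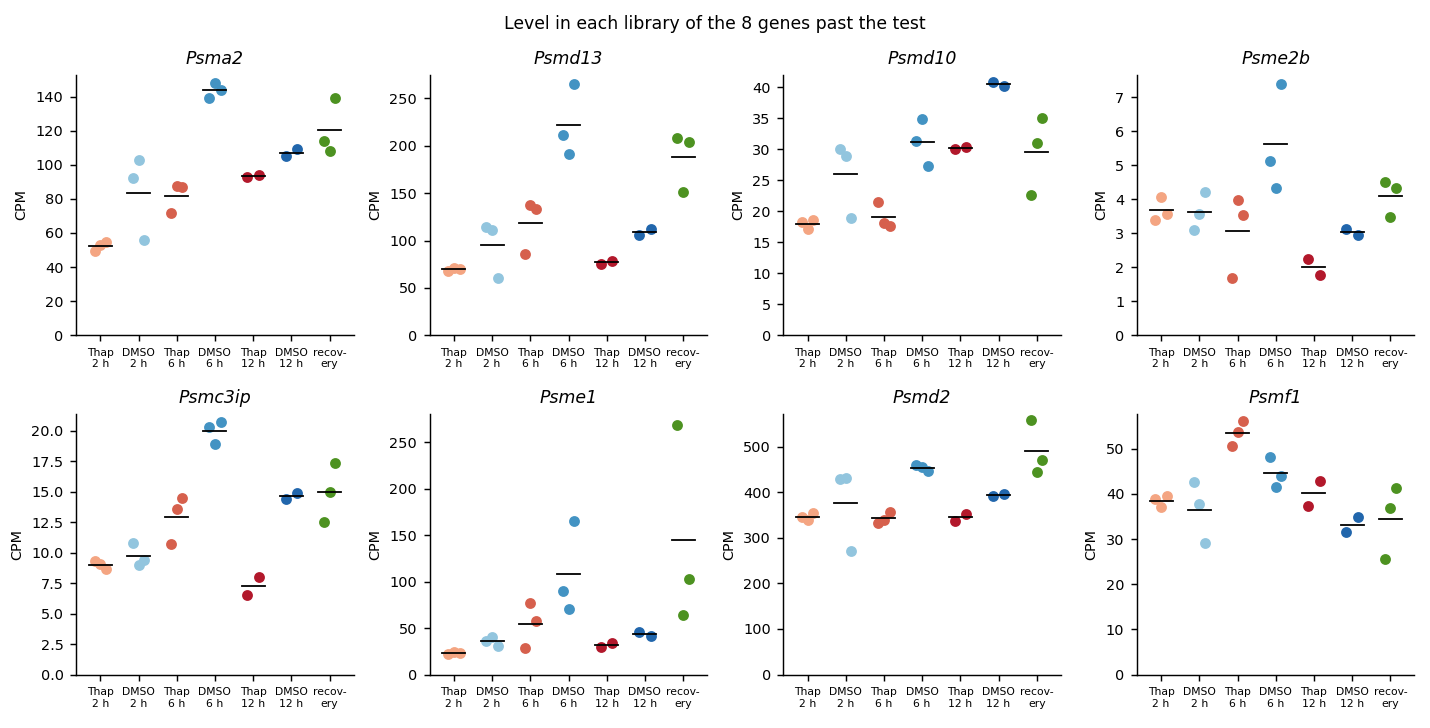
CPM in each library (dots; bars are group means) of the 8 members called in at least 1 of the 4 comparisons of thapsigargin with DMSO and of recovery with thapsigargin at 6 h. Psma2 shows thapsigargin libraries of 71.5 to 87.4 CPM and DMSO libraries of 139 to 148 CPM at 6 h, and Psme1 shows 1 recovery library at 268 CPM.

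The largest negative difference at 6 h belonged to Psme1, the PA28 alpha gene, and was not called. It had 28.2, 77.1 and 57.5 CPM in thapsigargin, against 89.4, 70.5 and 165 CPM in DMSO (-1.0 ± 0.44, adjusted p = 0.13), and the groups overlapped. Psme2 stood at -0.72 ± 0.46, Psmb5 at -0.58 ± 0.68, Psmb10 at -0.48 ± 0.63, Psme3 at 0.13 ± 0.22, Psme4 at 0.07 ± 0.25 and Psmf1 at 0.26 ± 0.19, none called. All 7 alpha and all 7 constitutive beta genes were negative, with medians of -0.61 and -0.44. With length and GC offsets, which take out each library's own trend over gene length and base composition, 7 members fell at 6 h (16.7%, against 28.3% of all genes): Psma1 (-0.59), Psma2 (-0.92), Psma5 (-0.68), Psmc3ip (-0.53), Psmd10 (-0.73), Psmd13 (-0.86) and Psme1 (-0.76). Without the 3 libraries whose length trend stood apart the members' median was -0.07. In that fit Psma2 (-0.73), Psmc3ip (-0.49), Psmd10 (-0.89), the scaffold gene Psmd1 (-1.06) and Psmb7 (-0.81) fell, the ATPase gene Psmc5 rose (0.74), and Psmd13 and Psme2b were not called (14.3% called, against 38.6% of all genes). Without the 2 libraries of high mitochondrial share 9 members fell (21.4%, against 37.0%). Psma2, Psmd10 and Psmc3ip were called in each of these 3 fits. With offsets Psma2 (adjusted p = 0.047, edgeR) and Psmc3ip (0.045) passed narrowly, and neither was called once a replicate block was added. The SD of Psma2 over the 19 libraries was 0.87 after offsets, against 0.50 before (log2).

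Promoter windows of 36 members were found in the RefSeq table, each running from 250 bases before the start to 50 after it. The stretches before the start of Psma2 and Psmd10, the subunit and the chaperone that fell, are shown with CCAAT boxes in capitals, and that of Psmb5 with an antioxidant or Maf element, the kind of site NRF1 uses. All 3 are 5′ to 3′ on the strand of the gene.
Psma2 (GRCm38.p6, chr13:14612992-14613241, plus strand): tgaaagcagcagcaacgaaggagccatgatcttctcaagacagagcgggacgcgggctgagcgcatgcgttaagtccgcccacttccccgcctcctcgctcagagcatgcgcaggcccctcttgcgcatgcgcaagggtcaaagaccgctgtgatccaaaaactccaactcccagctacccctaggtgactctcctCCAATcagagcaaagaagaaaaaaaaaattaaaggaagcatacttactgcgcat
Psmd10 (GRCm38.p6, chrX:140956712-140956961, minus strand): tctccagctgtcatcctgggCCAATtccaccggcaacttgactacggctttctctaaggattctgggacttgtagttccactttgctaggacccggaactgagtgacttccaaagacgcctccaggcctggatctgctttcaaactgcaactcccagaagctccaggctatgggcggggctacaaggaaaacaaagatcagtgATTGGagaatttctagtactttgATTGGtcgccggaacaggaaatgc
Psmb5 (GRCm38.p6, chr14:54617996-54618245, minus strand): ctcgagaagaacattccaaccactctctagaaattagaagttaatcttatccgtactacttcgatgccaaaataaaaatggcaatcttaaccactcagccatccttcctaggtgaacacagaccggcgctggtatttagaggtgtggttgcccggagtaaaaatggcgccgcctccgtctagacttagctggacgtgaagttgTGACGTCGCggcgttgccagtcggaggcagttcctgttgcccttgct
Motifs were searched on both strands. CCAAT stood in 13 of 36 members (36.1%), against 41.1% of 27025 genes with a window. TGACNNNGC, the antioxidant or Maf element, stood in Psmb5, Psmb6, Psmc6, Psmd9, Psmd12 and Psme4, 6 of 36 (16.7%, against 14%). TGATGNAA, the composite element of CEBP and ATF factors, stood in Psmd13 alone (2.78%, against 4.51%), in a window whose start lies downstream of the start of the gene in GENCODE. Its first 30 bases hold the match in capitals, on the opposite strand.
Psmd13 (GRCm38.p6, chr7:140882144-140882173, plus strand): gatTTGCATCAcacctagtcctcgccaaac
TTCNNNGAA, the gamma-activated site, stood in Psmd2 alone (2.78%, against 9.55%), and the ER stress element in 0 members (against 0.137%). A match is a run of letters in the window and not a shown binding site. Among the 5 members that fell at 6 h, CCAAT stood in Psma2, Psmd10 and Psmc3ip, and the antioxidant or Maf element in none.

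At 12 h the 1 member called was Psmc3ip, which is not a subunit, against 13.1% of all genes called (6.29% higher and 6.77% lower). It had 6.57 and 8.0 CPM in thapsigargin, against 14.4 and 14.9 CPM in DMSO, and fell by 1.0 ± 0.22 on the log2 scale (adjusted p = 0.0059, edgeR). Its call was lost without DMSO replicate 2 (-0.98, 0.056) or thapsigargin replicate 1 (-0.87, 0.11), fits in which 1 library stands for its group and the other groups supply the spread. Members' median was -0.08, against 0.01, with 26 negative and 16 positive. Thapsigargin libraries lay below DMSO in 22 members (52.4%, against 35.8% of all genes) and above in 11 (26.2%, against 37.3%). Among those 11 was Psmd14, the deubiquitinase of the 19S lid, with the highest difference (0.40, not called). Psma2 had 93.1 and 94.1 CPM in thapsigargin, against 105 and 109 CPM in DMSO (-0.19 ± 0.24), and Psmd10 had 30.1 and 30.4 CPM, against 40.9 and 40.2 CPM (-0.43 ± 0.25). Psmb5 (0.25 ± 0.85), Psmb10 (0.35 ± 0.78), Psme1 (-0.46 ± 0.54), Psme2 (-0.05 ± 0.56), Psme3 (0.26 ± 0.27), Psme4 (0.03 ± 0.31) and Psmf1 (0.28 ± 0.23) were not called. When the fit was restricted to the 4 libraries at 12 h, 19 members were called, 8 higher and 11 lower (45.2%, against 62.2% of all genes).

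The change of the response over time was not called for any member. The difference of the 6 h response from the 2 h response gave 0 of 42 (against 3.99% of all genes; 1 member with an unadjusted p under 0.05, against 15.6%), with a median of -0.03, against 0.05. The difference of the 12 h response from the 6 h response gave 0 of 42 (against 0.571%; 0 with an unadjusted p under 0.05, against 7.95%), with a median of 0.25, against -0.04. The second median was 0.09 without DMSO 6 h replicate 3 and 0.12 without thapsigargin 6 h replicate 1. Leaving out 1 library at a time put the first between -0.21 and 0.15. For Psma2 these differences were -0.14 ± 0.28 and 0.62 ± 0.31. DESeq2 called 0 members in either. Without the 3 libraries whose length trend stood apart the medians were 0.22 and -0.06, and 3 members were called in the first (against 20.8% of all genes).

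In recovery against thapsigargin at 6 h, 4 members rose and 1 fell (11.9%, against 25.5% of all genes, of which 11.6% rose and 13.9% fell). Members' median was 0.23, against 0.04 over all genes, and was 0.02 (all genes -0.05) without recovery replicate 1 and 0.08 (all genes 0.13) without thapsigargin replicate 1. A fit of only the groups compared called 0 of the 5 (9.19% of all genes), and total-count scaling or no filter on low counts called Psme1 alone. Recovery libraries lay above thapsigargin in 5 members (11.9%, against 12%) and below in 1 (2.38%, against 19%). This comparison shares its thapsigargin libraries with the comparison at 6 h above. Psme1 had 268, 63.6 and 103 CPM in recovery, against 28.2, 77.1 and 57.5 CPM in thapsigargin at 6 h (1.41 ± 0.45, adjusted p = 0.029, edgeR). The groups overlapped, and the highest recovery value came from replicate 1, the library of high mitochondrial share; without it the difference was 0.61 (0.22). The call for Psme1 was also lost without thapsigargin replicate 1 (1.10, 0.11) or 3 (0.072).

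Psmd10 had 22.6, 31.0 and 35.0 CPM in recovery, against 21.5, 18.1 and 17.7 CPM in thapsigargin at 6 h (0.63 ± 0.20, adjusted p = 0.030). Psma2 had 114, 108 and 139 CPM, against 71.5, 87.4 and 86.7 CPM (0.56 ± 0.20, 0.046). Psmd2, the Rpn1 scaffold of the 19S base, had 558, 444 and 470 CPM, against 333, 339 and 357 CPM (0.52 ± 0.18, 0.046). For these 3 members the groups did not overlap. Psmd10 lost its call without thapsigargin replicate 2 (0.59, adjusted p = 0.087) or 3 (0.57, 0.10) or recovery replicate 2 (0.60, 0.061) or 3 (0.49, 0.12). Psma2 lost it without thapsigargin replicate 1 (0.47, 0.14), 2 (0.61, 0.072) or 3 (0.60, 0.084) or recovery replicate 3 (0.44, 0.15). Psmd2 kept it only without recovery replicate 2; without any other of the 6 its difference was 0.41 to 0.55 (adjusted p 0.065 to 0.10). Most of these differences were close to those of all libraries.

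Psmf1, which encodes the proteasome regulator PI31, was the member that fell in recovery. It had 25.6, 36.8 and 41.2 CPM in recovery, against 50.5, 53.8 and 56.2 CPM in thapsigargin at 6 h (-0.63 ± 0.19, adjusted p = 0.021). All recovery libraries lay below all thapsigargin libraries, and the call was lost without 1 library, thapsigargin replicate 3 (-0.60, 0.066). Psmb5 (1.0 ± 0.68), Psmb10 (1.03 ± 0.64), Psme2 (0.77 ± 0.46), Psme3 (-0.42 ± 0.22) and Psme4 (-0.10 ± 0.25) were not called. Psme3, the nuclear PA28 gamma gene, was called lower without recovery replicate 2 (-0.63, 0.049). Psmb5 had 208, 19.4 and 36.1 CPM in recovery, against 19.5, 63.1 and 49.0 CPM in thapsigargin, and the groups overlapped. Without the 3 libraries whose length trend stood apart it was at -1.03 (adjusted p = 0.0084). In that fit 12 members were called (28.6%, against 46.3% of all genes), 3 higher and 9 lower, and the members' median was -0.15. Among the 9 were Psmb3 (-0.74), Psmd4 (-0.74), Psmd3 (-0.62) and Psmc5 (-1.04), which stood at 1.08, 0.27, 0.53 and 0.20 with all libraries, none called. Psmd10 and Psmf1 were called in it in the direction given above, and Psma2, Psmd2 and Psme1 were not.

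Against DMSO at 6 h, 0 of 42 members were called in recovery (against 0.327% of all genes). At an unadjusted p under 0.05 there were 2 members, both lower (against 9.79% of all genes), and DESeq2 called 0 (against 2.34%). The members' median was -0.12, against 0.06, and moved to -0.39 when DMSO 2 h replicate 3 and recovery replicate 1 were left out. Recovery libraries lay below DMSO in 5 members (11.9%, against 5.43%) and above in 0 (against 4.71%). Psmc3ip was among the 5, with 12.5, 15 and 17.4 CPM in recovery, against 20.3, 18.9 and 20.7 CPM in DMSO (-0.41 ± 0.18, adjusted p = 0.46). Psmf1 was another, with 25.6, 36.8 and 41.2 CPM, against 48.1, 41.6 and 44.0 CPM (-0.37 ± 0.19). Psma2 stood at -0.25 ± 0.20, Psmd10 at -0.08 ± 0.20, Psmb5 at 0.42 ± 0.68, Psmb10 at 0.56 ± 0.63, Psme1 at 0.42 ± 0.44, Psme2 at 0.05 ± 0.46, Psme3 at -0.29 ± 0.22 and Psme4 at -0.03 ± 0.25.

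Proteasome genes differed far more between vehicle groups than between drug and vehicle. In DMSO at 6 h against DMSO at 2 h, 31 members were higher and Psme4 was lower (76.2% called, against 49.6% of all genes; 73.8% higher, against 24.6%, and 2.38% lower, against 25%), with a median of 1.04, against -0.02. Groups did not overlap in 34 members that were higher (81.0%, against 30.3%) and 3 that were lower (7.14%, against 31.3%). Psmb5 was the furthest, with 40.5, 33.4 and 123 CPM at 6 h, against 10.1, 9.47 and 5.81 CPM at 2 h (2.95 ± 0.73, adjusted p = 0.0044). Psmb10 (2.48 ± 0.67) and Psmb6 (2.39 ± 0.62) followed. The scaffold gene Psmd1 was the lowest (-1.0) and was not called. Psme4, the PA200 gene, had 97.6, 110 and 77.2 CPM at 6 h, against 172, 190 and 158 CPM at 2 h (-0.87 ± 0.26, 0.012). In DMSO at 12 h against 6 h, 23 members were lower and 0 higher (54.8%, against 35.4% of all genes called, 16.8% lower and 18.7% higher), with a median of -0.98, against 0.0. Groups did not overlap in 36 members that were lower (85.7%, against 34.4%) and 4 that were higher (9.52%, against 37.1%). Psmb5 was again the furthest, with 9.97 and 10.7 CPM at 12 h (-2.66 ± 0.85, 0.027). The count was 5 without DMSO 6 h replicate 3 (16.9% of all genes called) and 1 without DMSO 12 h replicate 1 (7.86%) or 2 (7.98%), while the members' median was -0.83, -0.96 and -1.0. Leaving out a DMSO 12 h library leaves 1, which is then assumed to vary like the other groups.

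These vehicle differences moved with a trend over gene length that ran through whole libraries. The median member has 1561 exonic bases, against 3205 for protein-coding genes of at least 1 CPM, and 30 of 42 members are no longer than 2057 bases, the lower quartile. Genes of at least 4737 bases stood above genes of at most 2057 bases by 0.50 to 1.31 (difference of median log2 deviations, each gene set against its mean over the libraries, members left out) in every library at 2 h and 12 h. At 6 h the difference was -0.02, -1.36 and -1.12 in thapsigargin and -1.02, -0.74 and -1.56 in DMSO, and in recovery it was -1.80, -0.15 and -0.95. Across the 19 libraries the members' median deviation followed this trend with a Pearson r of -0.96 and a Spearman rho of -0.92, and the trend over GC content with a rho of 0.93. Libraries of a group share treatment and time, so these are descriptions. After length and GC offsets the SD of the members' median over libraries was 0.26, against 0.55 before. The vehicle counts were then 14 higher and 2 lower at 6 h against 2 h (38.1%, against 34.5% of all genes) and 1 higher and 9 lower at 12 h against 6 h (23.8%, against 20%), with medians of 0.39 and -0.37. What part of the vehicle differences belongs to the cells was not tested.

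**Figure D4:**
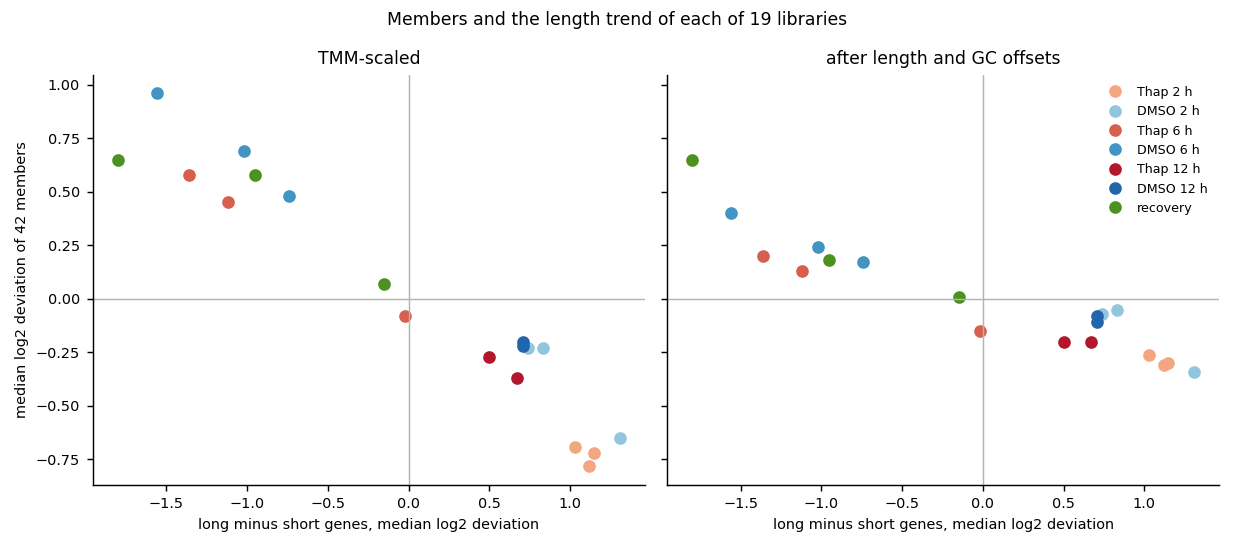
Median log2 deviation of 42 members from their mean over libraries (vertical axis) against the median log2 deviation of long minus that of short genes (horizontal axis) in 19 libraries, coloured by group, before (left) and after (right) length and GC offsets. Before the offsets the members' medians run from -0.78 to 0.96 and fall as the trend rises; after them they run from -0.34 to 0.65.

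Members differed in how much they varied. Over the 19 libraries the per-kilobase level spanned 36.0-fold for Psmb5, 31.3-fold for Psmb10 and 30-fold for Psmb6, against 1.65-fold for the chaperone gene Psmd5 and 1.76-fold for the lid gene Psmd11. The SD of the log2 level over libraries was 0.62 for the median member and 0.36 after length and GC offsets. It was larger in shorter genes (Spearman rho of -0.57 with exonic length over 42 members, which share libraries and depth). The pseudogenes Psmb5-ps, Psmb6-ps, Psmb6-ps2 and Psmb7-ps2 had between 0 and 5 counts each over all libraries.

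Of 12 regulators of proteasome gene transcription, 3 rose at 2 h (4.52% of all genes were called), 3 at 6 h (13% of all genes rose) and 2 at 12 h (6.29% rose), and none fell. Nfe2l1, the gene of NRF1, averaged 484 ± 27.9 CPM in thapsigargin and 301 ± 55.5 CPM in DMSO at 2 h (SD, n = 3 each; log2 difference 0.68 ± 0.18, adjusted p = 0.044). At 6 h it averaged 625 ± 86.3 CPM in thapsigargin and 218 ± 21.5 CPM in DMSO (1.52 ± 0.19, 2.8e-05), and at 12 h 1020 ± 42.3 CPM and 324 ± 2.28 CPM (n = 2 each; 1.66 ± 0.23, 0.00012). It fell to 295 ± 39.8 CPM in recovery, against 625 ± 86.3 CPM in thapsigargin at 6 h (-1.08 ± 0.18, 0.00044). Its DNA-binding partner Mafk rose at 2 h (1.76 ± 0.42), 6 h (1.33 ± 0.42) and 12 h (1.77 ± 0.52), and Foxo3 at 2 h (0.74 ± 0.18) and 6 h (1.05 ± 0.19). The medians of the 12 were 0.27, 0.44 and -0.05. In recovery against thapsigargin at 6 h 4 fell (Mafk, Nfe2l1, Foxo3 and Mafg). NRF1 is activated by cleavage of its protein, which RNA counts do not show. Calls of listed genes outside the members, here and below, were not repeated under other scalings or filters or without single libraries.

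Of 22 measured genes, of 25 listed, that assemble or accompany the proteasome, edgeR called 0 at 2 h, 3 at 6 h (against 21.8% of all genes) and 0 at 12 h, with medians of -0.22, 0.07 and 0.14. At 6 h Ddi2, the protease that cleaves NRF1, rose, with 66.3 ± 11.8 CPM in thapsigargin and 36.9 ± 3.23 CPM in DMSO (0.85 ± 0.20, adjusted p = 0.0069). Pomp, the maturation factor of the core, fell, with 86.4 ± 21.1 CPM in thapsigargin and 196 ± 31.2 CPM in DMSO (-1.18 ± 0.31, 0.010), and so did Midn (-0.98 ± 0.32, 0.039), which delivers nuclear proteins to the proteasome without ubiquitin. In recovery Ddi2 fell (-0.96 ± 0.21) and Midn rose (1.12 ± 0.32) against thapsigargin at 6 h. In the list of ubiquitin, E1 and p97 genes the ER-associated degradation genes Herpud1 (4.11 ± 0.33) and Syvn1 (1.26 ± 0.34) rose at 2 h. At 6 h Herpud1 (4.18 ± 0.33), Sel1l (2.54 ± 0.31), Syvn1 (2.36 ± 0.36) and Derl1 (1.31 ± 0.24) rose and 16 of 20 did not pass, and the same 4 rose at 12 h. Of 7 ubiquitin ligases listed for muscle, Mdm2 alone rose at 6 h (1.21 ± 0.21; 13% of all genes rose) and 12 h (0.83 ± 0.26; 6.29% rose). The other 6 did not pass at either time.

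**Figure D5:**
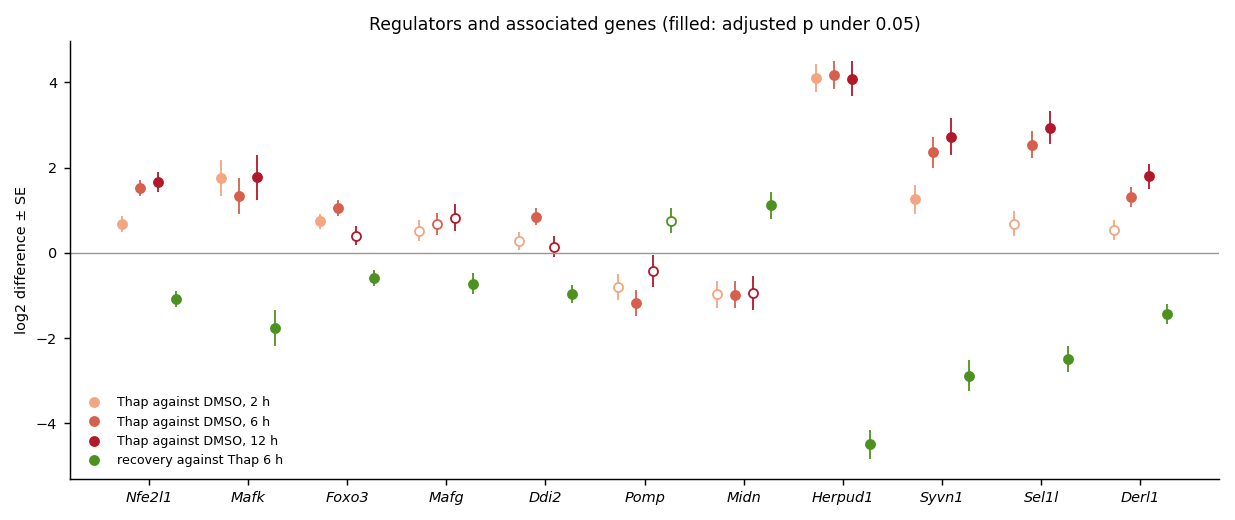
Log2 differences (dots) with SE (bars) of 11 regulators and associated genes in 4 comparisons, thapsigargin against DMSO at 2, 6 and 12 h and recovery against thapsigargin at 6 h; filled dots have an adjusted p under 0.05. Nfe2l1 and Mafk lie above 0 at all 3 times and below 0 in recovery, and Pomp lies below 0 at 6 h.

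Of 11 genes of antigen presentation, Irf1 rose (1.31 ± 0.27, adjusted p = 0.011) and B2m fell (-1.04 ± 0.25, 0.023) at 2 h. At 6 h Nlrc5, an activator of class I genes, rose (1.16 ± 0.17, 0.00011), and Tapbp (-1.75 ± 0.30, 0.00054) and Irf1 (-0.86 ± 0.27, 0.030) fell. Irf8 was called higher at 6 h with 0.407 ± 0.13 CPM in thapsigargin and no count in DMSO. Summed myoblast markers lay between 5940 and 10400 CPM in thapsigargin at 6 h and between 12600 and 18100 CPM in DMSO; Vim, Cdh15 and Pax7 fell and Myf5 rose. Some markers of other cells rose at low levels at 6 h: Cd74 averaged 15.6 ± 7.3 CPM in thapsigargin and 0.127 ± 0.0679 CPM in DMSO, Krt8 11.4 ± 3.49 and 1.33 ± 0.992 CPM, and Lyz2 0.476 ± 0.0681 and 0.0744 ± 0.0678 CPM. Krt18 and all 3 endothelial markers tested (Cdh5, Kdr and Tek) were also called higher. Cd68, the most abundant macrophage marker, averaged 4.37 CPM in thapsigargin and 7.48 CPM in DMSO. Summed macrophage markers lay between 4.13 and 5.64 CPM in thapsigargin and between 6.66 and 9.49 CPM in DMSO, with 3 of 5 markers at 10 counts or more in any library and Adgre1 at 0 in all. The sum of 4 dendritic or B cell markers, 7.56 to 21.6 CPM in thapsigargin and 0.0934 to 0.237 CPM in DMSO, was nearly all Cd74, the only 1 of the 4 with 10 counts in any library. The sums in thapsigargin and DMSO were for 4 endothelial markers 2.64 to 4.79 and 0.514 to 0.61 CPM, and for 4 epithelial markers 13.3 to 24.3 and 0.685 to 2.61 CPM, with Epcam at 0 in all libraries. Their part in the members' values was not tested.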

How the data were processed

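RNA sequencing of polyadenylated RNA was analysed in 19 libraries of 7 groups. Deposited values are raw counts of reads in each gene, whole numbers. Per the submitters' processing notes, Trim Galore, STAR 2.5.3a, bedtools 2.31.0, DESeq2 and the mouse build mm10 were used. The sources used here name no counting tool, strand setting or annotation release. The 5 lines of unassigned reads were left out: of the reads in genes, outside features or ambiguous, 2.66% to 6.74% lay outside features and 6.23% to 8.93% were ambiguous. Gene names, lengths and overlaps come from GENCODE M21, which held 55141 of 55401 identifiers.

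Counts were scaled by TMM and filtered by filterByExpr in edgeR 4.0.16 (R 4.3.3), and 18039 genes entered a single quasi-likelihood model of 7 group means without a replicate block. Tests were two-sided and adjusted by Benjamini-Hochberg over all genes. The code of the model was run on simulated counts with known changes. These had less spread than the data and no length trend, so that run says nothing about effects of the trend. Alternatives were total-count scaling, scaling without mitochondrial genes, other filters, DESeq2 1.42.0, a replicate block, length and GC offsets (natural splines with 5 degrees of freedom on the longest coding transcript), fits of only the groups compared, and fits without libraries. Among named genes, only members were examined under these alternatives. Deviations used log2 of CPM plus 0.5. Levels between genes are CPM per kilobase. Python 3.11.15 with pandas 2.3.3 and matplotlib 3.10.9 made tables and plots. No pair of replicates agreed within sampling noise (chi-square per degree of freedom of at least 2.24).

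The trend over gene length used protein-coding genes that averaged 1 CPM or more. Members and lists were chosen with earlier results of these data known. Called members are named, with Psmb5, Psmb8, Psmb9, Psmb10, Psma8, Psme1, Psme2, Psme3, Psme4 and Psmf1 in each group comparison; other members, and members called under an alternative, were named after their values were seen. For 3 of 25 assembly symbols no entry was matched. Planned ratios of Psmb8 to Psmb5 and Psmb9 to Psmb6 were not made, since both genes were near 0.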

Additional observations from a re-analysis of the deposited data

Results flagged for a closer look

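Psmd8, a lid subunit gene, and Psme3 lay on opposite sides of DMSO at 2 h and 12 h without overlap, in every library of both times. For Psmd8 the log2 difference at 12 h exceeded that at 2 h by 0.47 (196, 199 and 188 CPM in thapsigargin, against 243, 228 and 247 CPM in DMSO at 2 h; 177 and 193 CPM, against 167 and 163 CPM at 12 h). For Psme3 it exceeded it by 0.55 (156, 161 and 155 CPM in thapsigargin, against 183, 195 and 201 CPM in DMSO at 2 h; 199 and 197 CPM, against 162 and 170 CPM at 12 h). Neither gene was called at either time, and the difference between 12 h and 2 h was not tested. Of all genes 19.2% lay below DMSO without overlap at 2 h and 37.3% above it at 12 h. How many of all genes met both conditions was not counted, so nothing here sets these 2 genes apart.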

How the results depend on the processing

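Of 1038 values recomputed under alternatives, which do not cover every member, 73 lost a call, 12 gained one and 48 moved. New calls of other members come on top: at 12 h the groups compared alone called 19 members, against 1 with all libraries. Among the values of genes named in advance, 1 changed sign while called (Psmb5, below). In the same fit other members also changed sign while called, among them Psmb3, Psmd4, Psmd3 and Psmc5, as given above. Medians and uncalled values also changed sign, as given below. At 2 h, where edgeR called 0 members, length and GC offsets gave 1 (against 8.95% of all genes), those offsets with a replicate block 1 (7.23%), DESeq2 3 (9.36%), the groups compared alone 3 (16.2%), the libraries without the 2 of high mitochondrial share 4 (10.4%) and those without the 3 whose length trend stood apart 6 (20.3%). At 6 h (5 called) total-count scaling gave 0 (16.1% of all genes) and no filter 2 (9.98%). Libraries without the 2 of high mitochondrial share gave 9 (37.0%), and without the 3 the median was -0.07. At 12 h (1 called) total-count scaling gave 0 (8.57% of all genes) and no filter 0 (5.45%). Offsets with a replicate block gave 2 (16.9%), DESeq2 2 (16.8%) and leaving out the 3 gave 2 (29.6%). Offsets gave 4 (18.8%), leaving out the 2 gave 4 (25.5%) and the groups compared alone 19 (62.2%). For recovery against thapsigargin at 6 h (5 called) the groups compared alone gave 0 (9.19% of all genes). Total-count scaling gave 1 (18.5%), no filter 1 (12.8%) and a replicate block 2 (21.9%). Leaving out the 3 gave 12 (46.3%), with a median of -0.15 and Psmb5 at -1.03 in place of 1.0. For recovery against DMSO at 6 h the median was -0.39 without the 2. For the 6 h minus 2 h response, leaving out the 3 gave 3 members (20.8% of all genes) and a median of 0.22. For the 12 h minus 6 h response the median was then -0.06. For the vehicle, offsets gave 16 members for DMSO at 6 h against 2 h (34.5% of all genes). For the later vehicle comparison (12 h against 6 h) offsets gave 10, total-count scaling 14 and leaving out the 2 gave 36. The cause of these moves was not tested.

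Leaving out 1 replicate of the groups compared at a time gave 0 to 3 members at 2 h (1.78% to 3.73% of all genes). It gave 2 to 4 at 6 h (16.1% to 18.5%). For recovery against thapsigargin it gave 0 to 7 (19.6% to 29.9%), and for recovery against DMSO medians of -0.37 to -0.03. At 12 h, where 1 library then stood for its group, the medians were -0.13 to -0.06. For the vehicle at 12 h against 6 h, leaving out a DMSO 6 h library gave 5 to 26 members (16.9% to 36.7%). Leaving out a library of another group also changed calls at 2 h and 6 h. Without DMSO 2 h replicate 3, Psma1 (-0.63), Psma5 (-0.79) and Psmd2 (-0.40) were called lower at 6 h too. Without recovery replicate 1, the calls at 6 h gained Psme1 (-1.0), Psma1 (-0.63) and Psma5 (-0.79). That fit also called Psma2 (-0.67) and Psma4 (-0.65) lower at 2 h. Same-numbered replicates showed no steady pairing: the correlations of their deviations ran from -0.608 to 0.391 at 6 h. For recovery against DMSO they ran from -0.505 to 0.686. With groups this small, and some libraries standing apart, these values cannot settle whether cultures were paired. The replicate block gave 0, 4 and 1 members at 2, 6 and 12 h. Leaving out the 3 libraries whose length trend stood apart was chosen after seeing the data.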
